A study of Mus musculus with 6 samples.

Results

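Interleukin-10 and its signalling were followed through 5 of the 31253 features counted in single cells of the mouse liver: the cytokine gene Il10, its receptor genes Il10ra and Il10rb, the transcription factor gene Stat3 and the feedback inhibitor gene Socs3. The genes were chosen by name, after a high level of Il10 in monocytes and macrophages of macro-metastatic livers had been seen in these same data. Il10 in that class is therefore given as a description, with no test. Tests of Il10 in the other classes use the same libraries, so they are not independent of that choice. Single cells came from whole livers in orthotopic mouse models of colorectal cancer at 3 stages: control, pre-metastatic and macro-metastatic, with 2 libraries each. The labels call the controls ctrl, and they name CT26-GFP, a colon carcinoma line carrying a green fluorescent protein, for all 6 libraries, controls included. The sources used here do not give age, sex or strain of the animals. The labels do not tell whether replicates came from separate animals. The p-values then cover only the spread among these libraries, and that spread may be technical. The question was how the liver microenvironment changes as metastasis progresses.

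Interleukin-10 is an anti-inflammatory cytokine made by macrophages, regulatory T cells and some B cells. It binds a receptor of 2 chains: IL-10Rα, the ligand-specific chain encoded by Il10ra, and IL-10Rβ, a chain shared with the receptors for interleukin-22 and type III interferons and encoded by Il10rb. The receptor's Janus kinases activate STAT3, which in macrophages turns on genes that restrain the production of inflammatory cytokines. SOCS3 is a STAT3 target that blocks receptors of the gp130 family, such as the interleukin-6 receptor. STAT3 and SOCS3 therefore also follow interleukin-6 and related cytokines, and in the liver STAT3 drives the acute-phase response.

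The unit is the UMI, a tagged transcript molecule, and levels are counts per 1000000 UMIs (CPM) of a cell class in one library. The libraries held 41914149 to 51750676 UMIs in the control and pre-metastatic groups, and 88986627 and 90819751 UMIs in the macro-metastatic group. A barcode was assigned to a cell class when at least 3 of the 10 markers of the class had a UMI and no other class had more than 50% of that number. Each class is named after the cells whose markers it shares. All markers were present in the feature list, and 82.7% to 99.9% of the gated barcodes of a class lay in clusters of the same name. Kupffer cells, the resident macrophages of liver sinusoids, numbered 185 and 207 in control libraries, 722 and 591 in pre-metastatic libraries, and 1720 and 1830 in macro-metastatic libraries. The control libraries held 33 and 42 monocytes and macrophages, the smallest class tested in that group, and the macro-metastatic libraries held 23 and 84 NK cells. Barcodes with markers of a pair of classes made up 10.8% to 20.7% of cells and were kept out of every class. Control libraries had 532 and 423 such barcodes with both Kupffer and endothelial markers, more than their gated Kupffer cells. Macro-metastatic libraries had 569 and 556, fewer than their gated Kupffer cells. Clusters named after Kupffer cells held 607 and 542 cells of control libraries, and 1817 and 2087 of macro-metastatic libraries. The gated counts are therefore no measure of the gain in Kupffer cells, and gated control cells may not represent the class. Pairs of libraries shared 126 to 222 barcodes, at most 1.87% of the smaller library.

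Across 7 classes (Kupffer cells, monocytes and macrophages, neutrophils, T cells, NK cells, B cells and endothelial cells), 32 pairs of a gene and a class could be tested with edgeR's quasi-likelihood test. A call is an adjusted p under 0.05. In macro-metastatic against control livers, 17 pairs were called, 13 higher and 4 lower, and 16.6% of all gene tests in these classes were called. Stat3 gave 7 of the 17 calls, a single call in each class. In pre-metastatic against control livers, 0 of the 32 pairs were called, and 0.107% of all gene tests. At an unadjusted p under 0.05 there were 7 such pairs, and DESeq2 called 2, Il10 in Kupffer cells and in endothelial cells. In macro-metastatic against pre-metastatic livers, 13 pairs were called, 11 higher and 2 lower, against 14.9% of all gene tests. The first and second comparisons share their control libraries, and the first and the third share the macro-metastatic libraries. Without either control library the first count was 10 or 11.

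Il10, the ligand, was highest in Kupffer cells at every stage among the 7 classes, and its level there was higher at each later stage. Kupffer cells held 21.1 and 18.2 CPM of Il10 in control, 70.2 and 59.2 CPM in pre-metastatic, and 215 and 267 CPM in macro-metastatic libraries. No library of one stage overlapped with those of another. In macro-metastatic against control livers Il10 rose by a log2 fold change of 3.78 (SE 0.20, edgeR's quasi-likelihood test, adjusted p = 0.000123), where 16.4% of the genes tested in Kupffer cells were called. Some gated Kupffer cells clustered with monocytes and macrophages, the class for which Il10 was chosen, so this p-value is not independent of that choice. The counts behind the rise were 11369 UMIs in macro-metastatic and 53 in control Kupffer cells, a ratio of levels of 12.3 with an exact 95% counting interval of 9.37 to 16.4. That interval takes UMIs as independent, although 1 control cell alone held 11 of the 53, so it is too narrow. Against pre-metastatic livers the rise was 2.05 (SE 0.16, adjusted p = 0.000161). In pre-metastatic against control livers the log2 fold change was 1.72 (SE 0.21, adjusted p = 0.0766), so the call was missed, although both pre-metastatic libraries lay above both controls. DESeq2 called that difference, as did edgeR with no filter and with Leiden clusters. It was not called with RLE scaling, a replicate block, gates of 2 or 4 markers, doublets kept or under 10% mitochondrial UMIs. Without either macro-metastatic library the log2 fold change was 1.74.

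**Figure D1:**
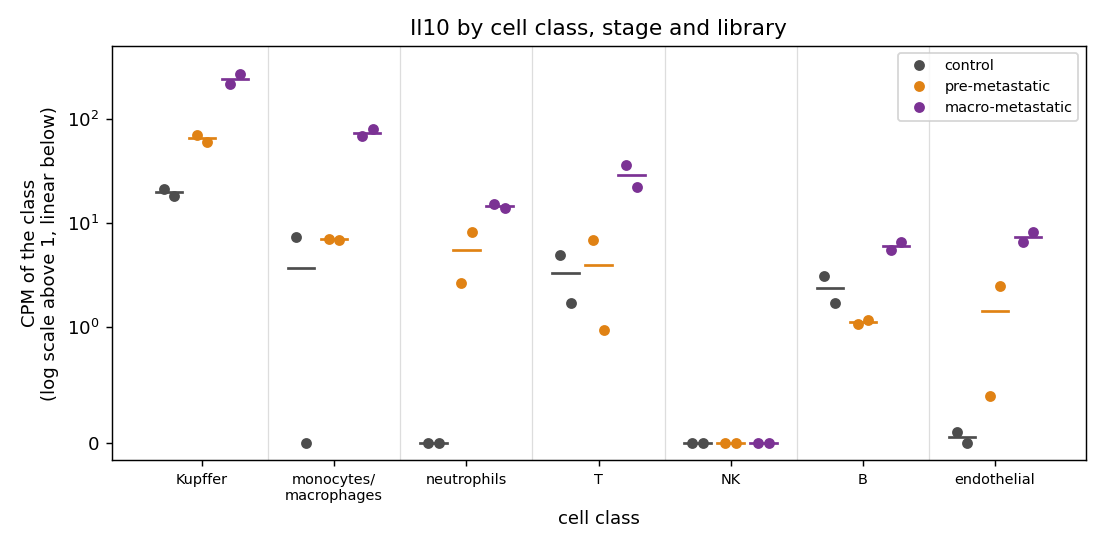
Il10 level in CPM of the class (vertical axis, log scale above 1 and linear below) in 7 cell classes at 3 stages. Each point is a library and each bar the mean of 2 libraries. In Kupffer cells the 3 stages do not overlap, and NK cells are at 0 in all 6 libraries.

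More Kupffer cells held Il10 transcript, and a minority held most of it. Cells with an Il10 UMI made up 7.03% and 4.35% of Kupffer cells in control libraries, 17.5% and 12.5% in pre-metastatic libraries, and 33.9% and 38.5% in macro-metastatic libraries. Depth moved with stage: the median Kupffer cell had 8152 and 6517 UMIs in control libraries, 10725 and 8760 in pre-metastatic libraries, and 14760 and 13738 in macro-metastatic libraries. With every cell thinned to 1000 UMIs the shares were 1.92% and 1.03% in control libraries, 4.18% and 2.23% in pre-metastatic libraries, and 12.1% and 15.3% in macro-metastatic libraries. The Wilson 95% intervals of the macro-metastatic libraries (10.6% to 13.8% and 13.7% to 17.1%) lay above those of all 4 other libraries. Kupffer cells with at least 10 Il10 UMIs numbered 184 and 237 in macro-metastatic and 0 and 1 in control libraries. The 10% of macro-metastatic Kupffer cells richest in Il10 held 72.8% and 66.0% of the Il10 UMIs of that class.

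**Figure D2:**
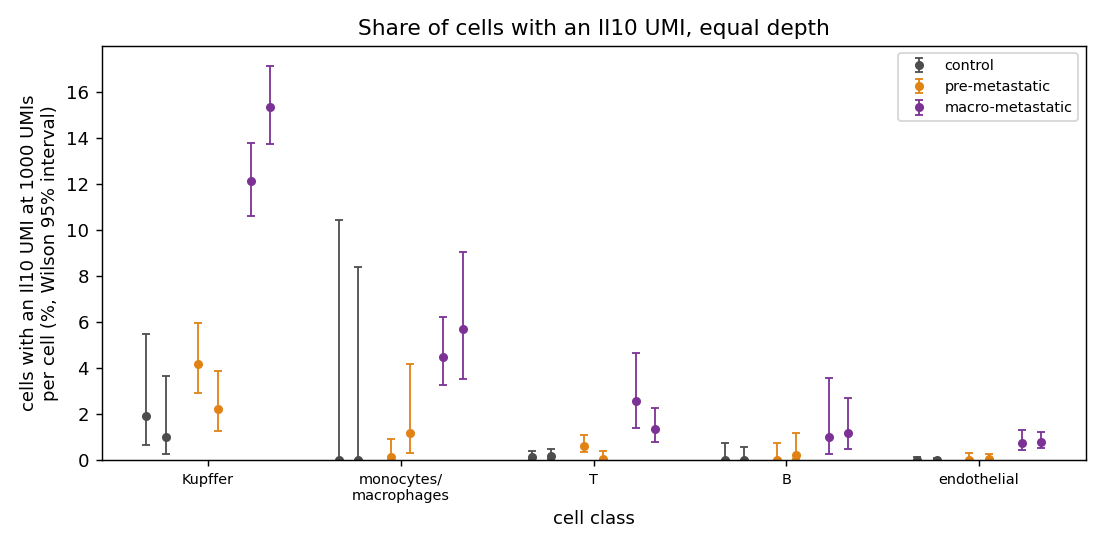
Percent of cells with an Il10 UMI after thinning every cell to 1000 UMIs (vertical axis), in 5 cell classes at 3 stages. Points are libraries and bars are Wilson 95% intervals, which cover counting error only. Macro-metastatic Kupffer cells stand at 12.1% and 15.3%, and endothelial cells of the same libraries below 1%.

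The Kupffer cells of the stages did not lie in the same clusters. In macro-metastatic libraries 1155 and 1326 Kupffer cells lay in one cluster, and 188 and 242 lay in the cluster that held most Kupffer cells of the control libraries (122 and 146) and of the pre-metastatic libraries (639 and 414). In the first of these clusters Il10 stood at 200 and 281 CPM in the macro-metastatic libraries, and at 402 CPM in the 34 Kupffer cells that pre-metastatic replicate 2 had there. Those 34 cells lay above both macro-metastatic libraries and held 138 of the 280 Il10 UMIs in that library's Kupffer cells. In the second, Il10 stood at 22.5 and 12.2 CPM in control, 64.4 and 31.1 CPM in pre-metastatic, and 30.9 and 50.9 CPM in macro-metastatic libraries. Within that second cluster the macro-metastatic and pre-metastatic libraries overlapped, and both lay above the controls. A further 217 and 50 macro-metastatic Kupffer cells, with 378 and 641 CPM, lay in a cluster named after monocytes and macrophages by its markers. They held 1153 of 5081 and 515 of 6288 Il10 UMIs of the gated Kupffer cells in these libraries. Since the clusters were drawn from the same transcripts, these values are a description.

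Kupffer cells held the largest part of all Il10 UMIs in the macro-metastatic libraries, 55.5% and 71.8%. Barcodes with markers of a pair of classes held most of the remainder, 36.0% and 21.4%, and in controls they held 57.8% and 56.4%. Many of these carried Kupffer markers: barcodes with both Kupffer and endothelial markers had 165 and 159 CPM of Il10 in macro-metastatic and 14.3 and 9.51 CPM in control libraries. Monocytes and macrophages held 4.70% and 1.79% of the Il10 UMIs of the macro-metastatic libraries.

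In monocytes and macrophages Il10 stood at 7.39 and 0 CPM in control, 7.09 and 6.83 CPM in pre-metastatic, and 67.9 and 79.6 CPM in macro-metastatic libraries. The controls of this class rest on 1 Il10 UMI, and 3 UMIs in a control library would have made 22.2 or 18.3 CPM. The ratio of macro-metastatic to control levels was 21.1, with an exact counting interval of 3.78 to 836. The level depended on how the class was drawn: with Leiden clusters in place of the marker gate it averaged 174 CPM in macro-metastatic livers, against 73.8 ± 8.28 CPM with the gate (SD, n = 2). Among gated cells of macro-metastatic livers, those with at least 2 of the macrophage genes Arg1, Spp1, Mmp12, Gpnmb and Trem2 had 93.4 and 204 CPM, and classical monocytes had 58.6 and 43.1 CPM. Barcodes with both Kupffer and monocyte-macrophage markers, outside either class, had 216 and 169 CPM. Kupffer markers summed to 237 and 221 CPM in macro-metastatic monocytes and macrophages, 1.37% and 1.15% of their level in Kupffer cells. Il10 stood at 31.6% and 29.8% of its Kupffer level. The gate itself limits the Kupffer markers that a cell of this class can hold. The part of Kupffer transcript in Il10 of this class was not tested.

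T cells, which include interleukin-10-producing regulatory T cells, had 36.1 and 22.1 CPM of Il10 in macro-metastatic and 4.97 and 1.70 CPM in control libraries. Il10 rose there by a log2 fold change of 3.003 (SE 0.60, edgeR's quasi-likelihood test, adjusted p = 0.00449), where 26.6% of genes were called. Against pre-metastatic livers it rose by 2.80 (SE 0.61, adjusted p = 0.00918). That second call was lost without macro-metastatic replicate 1 (adjusted p = 0.0641) and with DESeq2 (adjusted p = 0.0617). T cells with at least 2 regulatory T cell genes had 50.8 and 6.66 CPM in control, 45.3 and 0 CPM in pre-metastatic, and 65.9 and 38.1 CPM in macro-metastatic libraries, so the stages overlapped. Other T cells had 20.3 and 14.7 CPM in macro-metastatic libraries, and at most 2.03 CPM in each of the remaining 4. Cells with regulatory genes numbered 113 of 396 and 232 of 978 T cells in macro-metastatic, and 201 of 2799 and 166 of 1826 in control libraries. Kupffer markers in T cells stood at 1.79% and 1.43% of their Kupffer level in macro-metastatic and at 0.391% and 0.324% in control libraries. Il10 in T cells stood at 16.8% and 8.28% of its Kupffer level in macro-metastatic and at 23.5% and 9.34% in control libraries. The part of Kupffer transcript in the rise was not tested.

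In endothelial cells, Il10 had 6.56 and 8.25 CPM in macro-metastatic libraries and 1 UMI in all controls together. The ratio of levels was 176 with an exact counting interval of 31.3 to 6977, with edgeR's quasi-likelihood test at an adjusted p of 0.00284. Against pre-metastatic livers the log2 fold change was 2.30 (SE 0.61, adjusted p = 0.0498), a call lost in 7 of 15 alternatives. Both stand among the calls counted above, but Il10 passed the filter on low counts in endothelial cells only through the macro-metastatic libraries, so neither is support for a difference. Il10 in these cells was 3.05% and 3.09% of its level in Kupffer cells of the same macro-metastatic libraries, where the 10 Kupffer markers stood at 2.48% and 1.85%. Control endothelial cells held the markers at 1.94% and 2.08% of their Kupffer level, all 10 of them detected, and Il10 at 0.466% and 0% of its Kupffer level. Endothelial cells with an Il10 UMI made up 4.52% and 4.13% in macro-metastatic libraries, and B cells with one 1.49% and 1.63%, at median depths of 6519 and 5899 UMIs in endothelial and 2268 and 2300 UMIs in B cells. Thinned to 1000 UMIs the endothelial shares were 0.773% and 0.804%, against 1.01% and 1.18% of B cells in the same libraries. The B cell shares rest on 3 and 8 Il10 UMIs in 202 and 430 cells, too few to order these classes. Whether these UMIs came from the endothelial cells themselves was not tested. Neutrophils had 15.1 and 13.8 CPM in macro-metastatic and 0 CPM in both control libraries, at least 1.93-fold higher when both controls together are set at 3 counts. The test missed the threshold (edgeR's quasi-likelihood test, adjusted p = 0.0742). Here too Il10 passed the filter only through the macro-metastatic libraries, so that test supports neither a difference nor its absence. Macro-metastatic neutrophils held Kupffer markers at 3.23% and 3.01% of their Kupffer level, and Il10 at 7.03% and 5.17%. The part of Kupffer transcript was not tested. B cells had 5.51 and 6.62 CPM in macro-metastatic and 3.10 and 1.69 CPM in control libraries, too few UMIs to test. NK cells had no Il10 UMI in any library, which in macro-metastatic libraries allows up to 40.0 and 15.1 CPM.

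Among the macro-metastatic classes, the mean Il10 level ran from Kupffer cells over monocytes and macrophages, T cells and neutrophils down to endothelial and B cells. Of neighbours in that order, only endothelial and B cells lay within each other's spread. Over 39 units of a class and a library with at least 50 cells, the genes whose level ran most like that of Il10 among 8399 were Ccl24, Lrp1, Ucp2, Hk2 and Lilra5, with Spearman's rho of 0.827, 0.826, 0.823, 0.822 and 0.821. The units share libraries and depth, so these values are a description. Ccl24, a chemokine, averaged 629 CPM in macro-metastatic and 556 CPM in control Kupffer cells, and Hk2, a hexokinase, averaged 261 CPM in macro-metastatic and 86.3 CPM in control Kupffer cells. None of the other 4 signalling genes ran like Il10: Il10ra had a rho of 0.31, and Socs3, Stat3 and Il10rb were at 0.13 or below.

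Il10ra, the ligand-specific receptor chain, was called lower in macro-metastatic Kupffer cells. Kupffer cells had 246 and 226 CPM of Il10ra in control, 186 and 204 CPM in pre-metastatic, and 142 and 131 CPM in macro-metastatic libraries. Every library of a later stage lay below every library of the stage before. Il10ra fell in macro-metastatic against control Kupffer cells by 0.63 on the log2 scale (SE 0.14, edgeR's quasi-likelihood test, adjusted p = 0.0231). Without control replicate 1, control replicate 2, pre-metastatic replicate 2 or macro-metastatic replicate 2 the adjusted p was 0.136, 0.0699, 0.0532 and 0.0699, and with Leiden clusters it was 0.158. In the other 6 classes Il10ra was not called, with adjusted p of 0.156 to 0.823. Both macro-metastatic libraries lay below both controls in monocytes and macrophages and in B cells too (log2 fold change -0.43 and -0.39). They lay above both controls in T and endothelial cells (0.34 and 0.73). The Kupffer change was not called different from that in B cells in a joint fit with library as a block.

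Il10ra was carried by leukocytes. Macro-metastatic neutrophils had 244 and 211 CPM, monocytes and macrophages 176 and 191 CPM, NK cells 66.7 and 171 CPM, B cells 103 and 102 CPM and T cells 45.0 and 47.1 CPM. Endothelial cells had 3.84 and 3.17 CPM in control, 5.47 and 10.4 CPM in pre-metastatic, and 5.22 and 4.92 CPM in macro-metastatic libraries. Control hepatocytes had 0.627 and 0 CPM.

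Il10rb, the shared chain, was called lower in macro-metastatic Kupffer, T and endothelial cells. Kupffer cells had 286 and 290 CPM in control, 293 and 324 CPM in pre-metastatic, and 170 and 197 CPM in macro-metastatic libraries. T cells had 85.3 and 83.7 CPM in control, 93.6 and 98.0 CPM in pre-metastatic, and 42.8 and 35.6 CPM in macro-metastatic libraries. Endothelial cells had 175 and 156 CPM in control, 133 and 134 CPM in pre-metastatic, and 96.5 and 60.6 CPM in macro-metastatic libraries. In each of these classes both macro-metastatic libraries lay below the other 4. Against control livers Il10rb fell by 0.49 on the log2 scale in Kupffer cells (SE 0.13, edgeR's quasi-likelihood test, adjusted p = 0.0419), by 1.10 in T cells (SE 0.17, adjusted p = 0.000968) and by 0.89 in endothelial cells (SE 0.21, adjusted p = 0.0223). The share of all genes that fell was 5.12% in Kupffer cells, 11.3% in T cells and 8.04% in endothelial cells, where 23.6% were called in all. In NK cells, B cells and neutrophils both macro-metastatic libraries also lay below both controls (log2 fold change -0.96, -0.63 and -0.44, not called). In a joint fit with library as a block, the Kupffer, T and endothelial changes were not called different from that in B cells.

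The T cell change held in all 15 alternatives run. The Kupffer change lost its call in 9 of 15, among them leaving out any single library (adjusted p of 0.0536 to 0.160), and the endothelial change without control replicate 1 or 2 (adjusted p = 0.144 and 0.0780). Against pre-metastatic livers Il10rb fell by 0.59 in Kupffer cells (adjusted p = 0.0159) and by 1.27 in T cells (adjusted p = 0.000704), where 6.46% and 8.89% of all genes fell. The Kupffer call was lost without pre-metastatic replicate 1 or 2 (adjusted p = 0.0813 and 0.113). Monocytes and macrophages had 93.8 and 95.8 CPM in macro-metastatic and 44.4 and 91.6 CPM in control libraries, a log2 fold change of 0.62 (SE 0.35, adjusted p = 0.325). Il10rb overlaps Gm21970, a gene on the same strand. Of the 31-base stretches near the 3' end of Il10rb, 27.4% occur in transcripts of other genes, so its counts are uncertain. Gm21970 was given 298 UMIs in all classes, and Il10rb 28250.

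**Figure D3:**
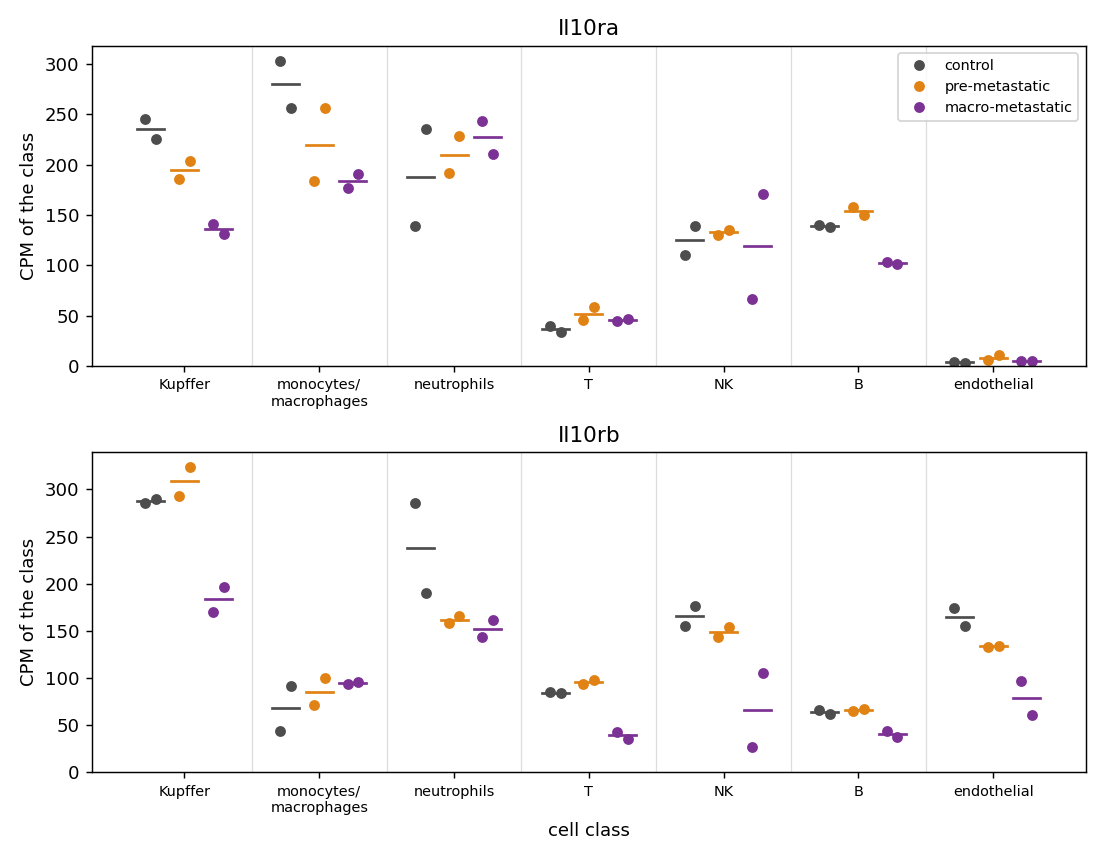
Il10ra (top) and Il10rb (bottom) in CPM of the class (vertical axes, linear from 0) in 7 cell classes at 3 stages. Points are libraries and bars are means of 2 libraries. Both genes are lower in macro-metastatic than in control Kupffer cells, and Il10ra is near 0 in endothelial cells.

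Stat3, the transcription factor that carries the interleukin-10 signal, rose in macro-metastatic against control livers in all 7 classes. Kupffer cells had 78.5 and 104 CPM of Stat3 in control, 101 and 88.2 CPM in pre-metastatic, and 233 and 340 CPM in macro-metastatic libraries. T cells had 147 and 220 CPM in control, 240 and 235 CPM in pre-metastatic, and 687 and 766 CPM in macro-metastatic libraries. NK cells, from 23 and 84 cells, had 1335 and 1120 CPM in macro-metastatic libraries, against 220 and 305 CPM in control libraries. In each of the 7 classes both macro-metastatic libraries lay above the other 4. The log2 fold change against control was 2.27 in NK cells (SE 0.22, edgeR's quasi-likelihood test, adjusted p = 8.78e-06), 2.13 in endothelial cells (SE 0.22, adjusted p = 0.00123), 2.03 in T cells (SE 0.18, adjusted p = 4.6e-05) and 1.81 in Kupffer cells (SE 0.21, adjusted p = 0.00112). It was 1.14 in neutrophils (SE 0.25, adjusted p = 0.0188), 1.11 in B cells (SE 0.19, adjusted p = 0.000507) and 0.97 in monocytes and macrophages (SE 0.25, adjusted p = 0.0441). The share of all genes called higher in the same classes was 4.27% in NK cells, 15.6% in endothelial cells, 15.3% in T cells, 11.2% in Kupffer cells, 5.82% in neutrophils, 10.4% in B cells and 4.78% in monocytes and macrophages.

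The Stat3 calls in 5 classes held in all 15 alternatives. In monocytes and macrophages the call was lost in 5 of 15 alternatives, among them those without control replicate 1 or 2, without macro-metastatic replicate 2 and with gates of 2 markers (adjusted p = 0.125, 0.136, 0.173 and 0.0644), and in neutrophils without control replicate 1 or 2 (adjusted p = 0.118 and 0.0974). Against pre-metastatic livers Stat3 rose in the same 7 classes, by 0.89 to 2.13 on the log2 scale. In that comparison 15% of all genes rose in Kupffer cells, 10.4% in monocytes and macrophages, 6.53% in neutrophils, 12.1% in T cells, 3.29% in NK cells, 8.28% in B cells and 9.41% in endothelial cells. Without pre-metastatic replicate 1 or macro-metastatic replicate 2 those calls were lost in monocytes and macrophages (adjusted p = 0.0767 and 0.172) and in neutrophils (adjusted p = 0.135 and 0.0940). In pre-metastatic against control livers the log2 fold changes were 0.06 to 0.49, with adjusted p of 0.613 to 0.999. The rise was larger than that in B cells of the same libraries in NK, T and endothelial cells, by 1.13, 0.97 and 1.11 on the log2 scale. Depth per cell moved with the same groups, and its part in a rise shared by every class was not tested.

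Socs3, the feedback inhibitor, rose in fewer classes and most in the endothelium. Endothelial cells had 132 and 155 CPM of Socs3 in control, 193 and 629 CPM in pre-metastatic, and 1294 and 1331 CPM in macro-metastatic libraries. The pre-metastatic libraries lay far apart and each above the controls. Against control livers Socs3 rose in macro-metastatic endothelial cells by 3.39 on the log2 scale (SE 0.51, edgeR's quasi-likelihood test, adjusted p = 0.00451), and against pre-metastatic livers by 1.82 (SE 0.48, adjusted p = 0.0483). Without control replicate 1 or 2 the first adjusted p was 0.0663 and 0.0614, at log2 fold changes of 3.30 and 3.45. The second was 0.104 and 0.110 without control replicate 1 or 2 and 0.0640 without macro-metastatic replicate 2, and gates of 2 and 4 markers gave 0.0511 and 0.0520. In pre-metastatic against control livers the change was 1.56 (adjusted p = 0.346), and without pre-metastatic replicate 1 it was 2.17 (adjusted p = 0.00870).

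Most macro-metastatic endothelial cells held Socs3 transcript. With every cell thinned to 1000 UMIs, 10.7% and 11.9% of endothelial cells had a Socs3 UMI in control libraries, 14.0% and 35.6% in pre-metastatic libraries, and 60.0% and 59.8% in macro-metastatic libraries. At the deposited depth the shares were 28.9% and 28.3% in control and 80.5% and 82.3% in macro-metastatic libraries. Il10ra in the same cells stood at 5.22 and 4.92 CPM, as given above.

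Kupffer cells had 113 and 123 CPM of Socs3 in macro-metastatic and 56.6 and 79.5 CPM in control libraries, a rise of 0.96 (SE 0.18, edgeR's quasi-likelihood test, adjusted p = 0.0113). Without control replicate 1 it was 0.77 (adjusted p = 0.0960). T cells had 122 and 103 CPM in macro-metastatic and 48.1 and 47.4 CPM in control libraries, a rise of 1.26 (SE 0.18, adjusted p = 0.000643). Neutrophils had 156 and 196 CPM in macro-metastatic and 315 and 277 CPM in control libraries, which do not overlap, and the log2 fold change of -0.59 (SE 0.21) was not called (adjusted p = 0.105). Monocytes and macrophages overlapped, with 219 and 141 CPM in macro-metastatic and 311 and 171 CPM in control libraries. B cells, at 60.6 and 59.6 CPM in macro-metastatic and 57.9 and 80.4 CPM in control libraries, were not called either. In a joint fit with library as a block, the macro-metastatic change of Socs3 exceeded that in B cells by 3.63 in endothelial cells, 1.45 in T cells and 1.10 in Kupffer cells on the log2 scale (adjusted p = 2.33e-05, 0.000763 and 0.0273). That fit called 8 of 28 pairs of the 5 genes, against 3.78% of all gene tests.

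**Figure D4:**
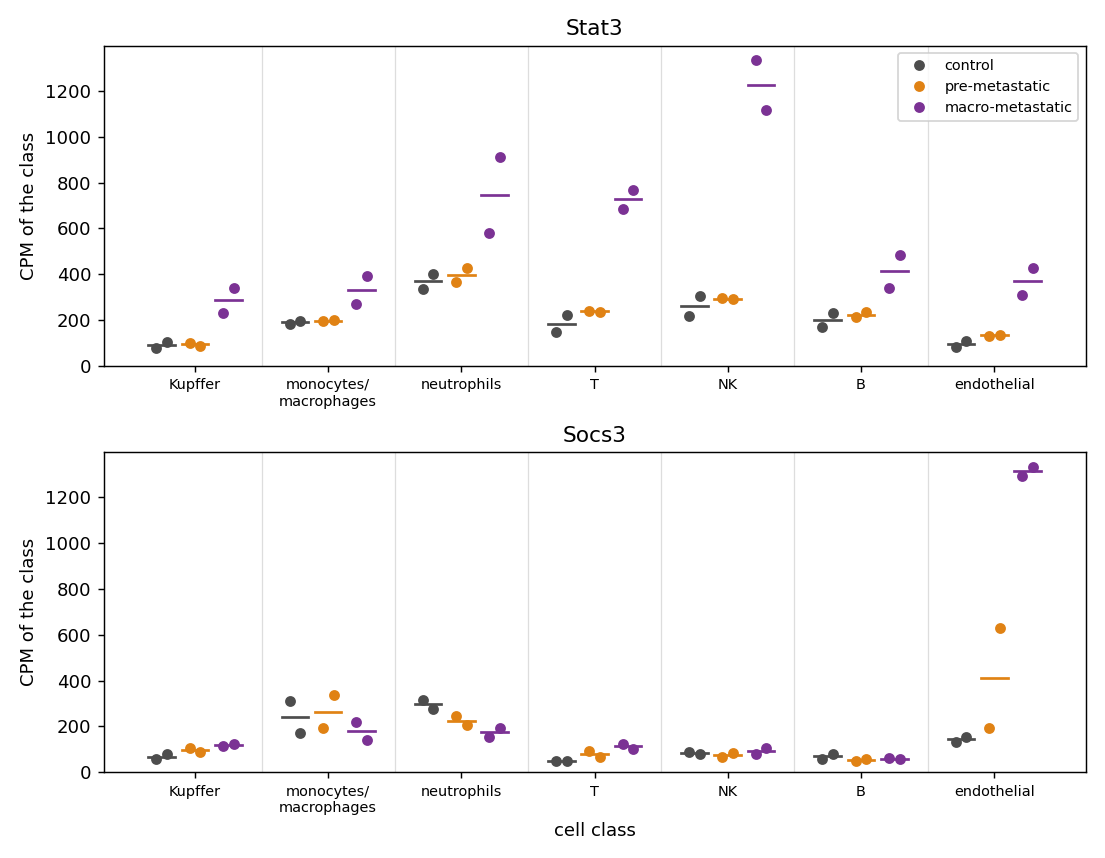
Stat3 (top) and Socs3 (bottom) in CPM of the class (vertical axes, linear from 0) in 7 cell classes at 3 stages. Points are libraries and bars are means of 2 libraries. Stat3 is highest at the macro-metastatic stage in every class, and Socs3 stands at 1294 and 1331 CPM in macro-metastatic endothelial cells.

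The promoter of Socs3 is shown because STAT3 binds the palindrome TTCNNNGAA, which reads alike on both strands. The RefSeq sequence table (GRCm38.p6) gave the 250 bases before the start of Socs3 (chr11:117969367-117969616, minus strand) and of Stat3 (chr11:100939541-100939790, minus strand). It gave none for the other 3 genes. GENCODE M21 places other Socs3 transcripts over part of that stretch. Capitals mark the match.
Socs3: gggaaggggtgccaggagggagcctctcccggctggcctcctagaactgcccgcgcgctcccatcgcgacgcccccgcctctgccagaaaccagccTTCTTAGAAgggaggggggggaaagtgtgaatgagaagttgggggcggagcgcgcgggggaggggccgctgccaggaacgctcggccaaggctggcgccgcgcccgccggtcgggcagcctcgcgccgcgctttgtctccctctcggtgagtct
Stat3: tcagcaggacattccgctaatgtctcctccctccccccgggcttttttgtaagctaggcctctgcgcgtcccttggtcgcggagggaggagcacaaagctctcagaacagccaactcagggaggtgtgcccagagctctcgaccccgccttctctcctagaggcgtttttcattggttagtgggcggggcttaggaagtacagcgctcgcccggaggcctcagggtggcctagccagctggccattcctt
Socs3 holds 1 match, which begins 154 bases before its start, and Stat3 holds 0. Of 32817 promoters of the same length, 2302 (7.01%) hold a match. A match is a description of letters, not a bound site.

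**Figure D5:**
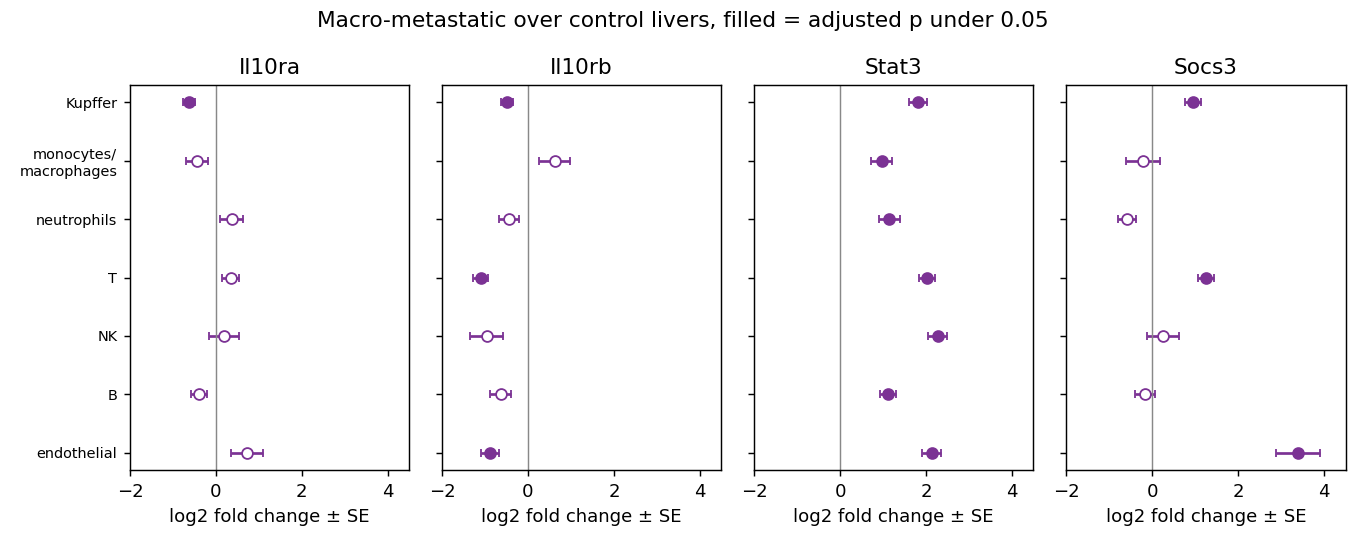
Log2 fold change of Il10ra, Il10rb, Stat3 and Socs3 in macro-metastatic over control livers (horizontal axes) in 7 cell classes, with the SE as bars. Filled points have an adjusted p under 0.05 in edgeR's quasi-likelihood test. Stat3 is filled in every class, from 0.97 to 2.27, and Socs3 in Kupffer, T and endothelial cells.

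The wider pathway was described with 8 lists. Of 7 genes for interleukin-10 family ligands, Il10 alone passed the filter on low counts in any class. In Kupffer cells, genes known to be repressed by interleukin-10 in macrophages were higher in macro-metastatic livers: 9 of 12 tested rose, with a median log2 fold change of 1.95 beside 0.01 for all genes. Il1a and Il1b, the interleukin-1 cytokines, rose by 2.76 (SE 0.21, adjusted p = 0.000298) and 2.63 (SE 0.26, adjusted p = 0.000657), and the chemokine gene Ccl4 rose by 2.38. Il1b stood at 2707 and 1940 CPM in macro-metastatic and 444 and 402 CPM in control Kupffer cells. Of 12 genes known to be induced by interleukin-10 in macrophages, 6 rose and 1 fell, with a median of 1.06. Il4ra, the interleukin-4 receptor chain, rose by 3.76 (SE 0.27), Nfil3, a transcription repressor, by 2.94 (SE 0.28), and Il1rn, the interleukin-1 receptor antagonist, by 3.55 (SE 0.34, edgeR's quasi-likelihood test, adjusted p = 0.000255, 0.000461 and 0.000466). Of the genes tested in Kupffer cells, 11.2% rose and 5.12% fell.

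Of the other cytokines and receptors that use STAT3, 4 of 11 tested rose in the same cells. Il6, which is also on the list of genes repressed by interleukin-10, stood at 668 and 267 CPM in macro-metastatic and 9.81 and 33.5 CPM in control Kupffer cells, and rose by 4.61 (SE 0.57, adjusted p = 0.00158). Osm, the cytokine oncostatin M, rose by 2.62 (SE 0.57, adjusted p = 0.0186) and Lepr, the leptin receptor, by 1.45 (SE 0.32, adjusted p = 0.0201). Of 11 regulators of Il10 transcription, 3 rose and 1 fell. Bhlhe40, in mouse T cells a repressor of Il10, rose by 2.17 (SE 0.19), and Prdm1, which encodes Blimp-1, by 1.55 (SE 0.28). Maf, an activator of Il10, stood at 1011 and 939 CPM in macro-metastatic and 1730 and 2466 CPM in control Kupffer cells and fell by 0.93 (SE 0.17, edgeR's quasi-likelihood test, adjusted p = 0.00921). Of 11 Janus kinase and STAT genes, Stat3 and Stat5a rose, with a median of 0.06. Stat5a had 273 UMIs in macro-metastatic Kupffer cells. Its gene meets Stat3 end to end on the opposite strand, and reads of the pair cannot be told apart where the counting did not use strand. Of 8 SOCS genes, Socs2 and Socs3 rose.

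Endothelial cells showed changes in the same lists. Of 8 SOCS genes 4 rose, with a median of 0.71. Cish, a STAT5 target, had 39.1 and 55.1 CPM in macro-metastatic and 4.33 and 4.37 CPM in control endothelial cells (log2 fold change 3.64, SE 0.39, adjusted p = 0.00132), and Socs2 rose by 1.34 (SE 0.25). Of 11 Janus kinase and STAT genes 5 rose and 1 fell. Jak2 rose by 1.63 (SE 0.14) and Jak1, a kinase of the interleukin-10 receptor, by 0.74 (SE 0.16, edgeR's quasi-likelihood test, adjusted p = 0.0175). Osmr, the oncostatin M receptor, rose by 1.04 (SE 0.23), and Lif, a cytokine of the interleukin-6 family, had 126 UMIs in macro-metastatic and 0 in control endothelial cells. Of 12 genes induced by interleukin-10, 10 rose, with a median of 2.87 beside 0.01 for all genes, and 15.6% of all genes rose. Of the genes repressed by interleukin-10, 9 of 11 tested rose as well, with a median of 1.90. Neutrophil markers in endothelial cells summed to 270 and 739 CPM in macro-metastatic and 105 and 77.0 CPM in control libraries. The part of neutrophil transcript in these rises was not tested. Among the induced genes Arid5a, an RNA-binding protein gene, rose by 4.85 (SE 0.28) and Cd163, a Kupffer cell scavenger receptor, by 2.15 (SE 0.19). Cd163 stood at 25.9 and 27.6 CPM in macro-metastatic endothelial cells and at 1429 and 2214 CPM in Kupffer cells of the same libraries.

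In T cells 4 of 11 Janus kinase and STAT genes rose. Il21r, the interleukin-21 receptor, rose by 1.39 (SE 0.16), and Il6ra, the interleukin-6 receptor chain, fell by 1.16 (SE 0.22). Crem, Bhlhe40 and Batf rose among the regulators of Il10, with Batf, a T cell transcription factor, at 1.41 (SE 0.23). In neutrophils 3 of 13 genes repressed by interleukin-10 rose and 3 fell, with a median of 0.66 beside 0.12 for all genes. Ptgs2, the prostaglandin synthase cyclooxygenase-2, fell by 3.02 (SE 0.20) and Il1b by 1.42 (SE 0.26, edgeR's quasi-likelihood test, adjusted p = 0.0103), where 5.82% of all genes rose and 4.36% fell. Of the cytokines and receptors that use STAT3, Osm fell by 2.29 (SE 0.30). Neutrophils held most Il1b, at 10290 and 6315 CPM in macro-metastatic and 25950 and 24150 CPM in control libraries. In B cells 9 of 11 genes induced by interleukin-10 rose, with a median of 1.99, and 10.4% of all genes rose. Of the repressed genes 8 of 10 rose, with a median of 3.004, among them Il1b, at 158 and 86.9 CPM in macro-metastatic and 7.24 and 8.46 CPM in control libraries. Neutrophil markers in B cells summed to 211 and 218 CPM in macro-metastatic and 7.24 and 11.0 CPM in control libraries, and their part in these rises was not tested.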

How the data were processed

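RNA of single cells was captured on the BD Rhapsody system from collagenase-digested whole livers after lysis of erythrocytes and removal of dead cells, per the labels' protocols, so cells lost in digestion are not measured. The deposited values are raw UMI counts per gene and barcode. Per the submitters' processing notes CASAVA 1.8, UMI-tools and the build mm10 were used. The aligner, the annotation and the use of strand were not given in the sources used here. Coordinates follow GENCODE M21 on GRCm38: Il10 at chr1:131019845-131024974, Il10ra at chr9:45253837-45269149, Stat3 at chr11:100885098-100939540, Socs3 at chr11:117966079-117970047 and Il10rb at chr16:91406164-91425834.

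Of 71908 barcodes, those with fewer than 300 genes or with 25% or more of their UMIs from mitochondrial genes were dropped, and the top 6% by doublet score of each library were left out, which left 63033 cells. Counts were summed per library and class. The test was the quasi-likelihood F test of edgeR 4.0.16 in R 4.3.3, after filterByExpr and TMM scaling, with all 6 libraries in each fit and Benjamini-Hochberg adjustment over all genes tested in the class. Printed CPM use unscaled sums. A fit without a library leaves a single library in its group, which is assumed to vary like the others. With 2 libraries a group the smallest two-sided p of an exact permutation test is 0.3333, so none was run.

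Differences from B cells were tested as the interaction of class and stage with library as a block. Shares carry Wilson 95% intervals, and ratios exact 95% counting intervals. Both cover counting error only, as do floors of 3 counts, and the ratio intervals take UMIs of one cell as independent. Clusters came from 2000 variable genes, 30 principal components and Leiden clustering at resolution 1 (scanpy 1.11.5). The alternatives were DESeq2 1.42.0, RLE scaling, no filter, a replicate block, leaving out each library, gates of 2 and 4 markers, doublets kept, under 10% mitochondrial UMIs and clusters in place of gates.

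Named genes are the 5 members, up to 3 called genes of each pathway list by smallest adjusted p in a class, and the 5 genes most like Il10 by Spearman's rho of log2 (CPM + 1), with a mean of at least 10 CPM. Members, markers and lists were chosen with earlier results of these data known. A result for 1 gene of the pathway lists is not reported here.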

Additional observations from a re-analysis of the deposited data

Results flagged for a closer look

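In a joint fit of each class with B cells of the same libraries, 8 macro-metastatic changes against control differed from the change in B cells (edgeR's quasi-likelihood test, adjusted p under 0.05). Differences are on the log2 scale, class minus B cells. Socs3 differed by 3.63 in endothelial cells, 1.45 in T cells and 1.10 in Kupffer cells, with higher levels in macro-metastatic libraries in each of these classes and 60.6 and 59.6 CPM in macro-metastatic B cells against 57.9 and 80.4 CPM in control B cells. Stat3 differed by 1.13 in NK cells, 1.11 in endothelial cells and 0.97 in T cells, all on top of a rise of 1.11 in B cells. Il10 differed by 5.74 in endothelial cells, where the controls rest on 1 UMI. The thinned share of macro-metastatic cells with an Il10 UMI was 0.773% and 0.804% in endothelial cells and 1.01% and 1.18% in B cells. The B cell shares rest on 3 and 8 Il10 UMIs in 202 and 430 cells, too few to order these classes. Il10 passed the filter on low counts in endothelial cells only through the macro-metastatic libraries, and the call was lost in 5 of 11 alternatives, so it is no support for a class difference. Il10ra differed by 1.23 in neutrophils, although neither class alone was called (0.37 in neutrophils and -0.39 in B cells), and the call was lost in 5 of 11 alternatives. The joint fit has its own scaling, and its difference exceeded that of the separate fits for Stat3 and Socs3 too: it gave 0.53 for Stat3, whose separate changes were 1.14 in neutrophils and 1.11 in B cells, and 0.08 for Socs3, with -0.59 in neutrophils and -0.16 in B cells. Socs3 in Kupffer cells lost its call in 5 of 11, Stat3 in NK cells in 3, and Stat3 in endothelial cells and Socs3 in T cells in 1 each. Socs3 in endothelial cells and Stat3 in T cells kept theirs in all 11.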

How the results depend on the processing

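No called change of the 5 genes reversed its direction under the alternatives run. For the 17 pairs called in macro-metastatic against control livers, leaving out a library gave 10 to 16 calls, fewest without control replicate 1. The 0 calls in pre-metastatic against control livers became 5 with no filter, 2 with DESeq2, 1 with doublets kept and 1 with Leiden clusters. Il10 in endothelial cells, no support for a difference, was among those with no filter, with DESeq2 and with doublets kept. The 13 calls against pre-metastatic livers ranged from 9 to 13 when a library was left out. The 8 differences from B cells became 5 with under 10% mitochondrial UMIs, and 3 to 12 when a library was left out, fewest without control replicate 2. Il10 in macro-metastatic monocytes and macrophages averaged 174 CPM with Leiden clusters, against 73.8 CPM with gates. Unthinned, 36.2% of macro-metastatic Kupffer cells and 15.9% of monocytes and macrophages had an Il10 UMI, against 13.7% and 5.10% thinned. Same-numbered deviations correlated at -0.14 to 0.16 in 6 classes, so the numbers were not taken as pairs, and at 0.12 to 0.37 in neutrophils. The replicate block gave 16, 0 and 15 calls in the 3 comparisons in place of 17, 0 and 13: Stat3 in monocytes and macrophages lost its call against control (adjusted p = 0.0596), and Il10 in neutrophils (0.0498) and Socs3 in T cells (0.0422) gained one against pre-metastatic livers. The Il10 call in neutrophils is no support for a difference, since Il10 passed the filter there only through the macro-metastatic libraries. Depth limits Il10 in control monocytes and macrophages, B cells and NK cells, where counts of 0 to 5 UMIs allow no order. Without the filter the median log2 fold change of all genes in macro-metastatic against control livers moved by 0.33 in Kupffer cells, 0.59 in monocytes and macrophages and 1.13 in neutrophils.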

Other observations

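Other classes held Il10 at levels that rest on few UMIs. Dendritic cells, the main antigen-presenting cells, had 27.4 and 5.42 CPM in macro-metastatic libraries, from 28 and 8 UMIs in 103 and 168 cells, against 2.69 and 0 CPM in control libraries. Plasma cells, which secrete antibody, had 14.1 and 72.5 CPM in macro-metastatic libraries, from 2 and 16 UMIs in 14 and 25 cells, against 5.91 and 0 CPM in control libraries. In both classes the macro-metastatic libraries lay far apart.

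Hepatocytes, which answer interleukin-6 through STAT3, numbered 4 and 59 in macro-metastatic and 621 and 532 in control libraries. Socs3 stood at 113 and 127 CPM in macro-metastatic hepatocytes, from 1 and 24 UMIs, and at 4.39 and 11.6 CPM in control hepatocytes. Stat3 stood at 340 and 603 CPM in macro-metastatic hepatocytes, from 3 and 114 UMIs, and at 52.9 and 99.9 CPM in control hepatocytes. Neither gene was tested in this class.

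In plasmacytoid dendritic cells, a source of type I interferon, Socs3 stood at 27.7 and 41.2 CPM in macro-metastatic and 77.6 and 72.6 CPM in control libraries, from 4 and 23 UMIs in the macro-metastatic libraries. Stat3 stood at 630 and 533 CPM in macro-metastatic and 241 and 277 CPM in control libraries. The groups do not overlap for either gene, and neither was tested in this class.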
